A study of Mus musculus with 32 samples.

Results

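Hypothalamic transcripts of the melanocortin and CART satiety system were followed in mice with and without the receptor gene Gpr101. The 10 genes were taken by symbol from the 55401 genes of the series and comprise the peptide precursors Pomc and Cartpt, the receptors Mc3r and Mc4r with the accessory protein gene Mrap2, and the processing genes Pcsk1, Pcsk2, Cpe, Pam and Prcp. All 10 were matched to a single gene each and all 10 passed the filter on low values. The hypothalamus came from 32 male C57BL/6NTac mice, each sequenced as its own library. Of 17 hemizygous Gpr101 knockouts, 8 ate the control diet (KO_CD) and 9 a high-fat diet (KO_HFD). Their 15 wild-type littermates were split into 7 on the control diet (WT_CD) and 8 on the fat-rich one (WT_HFD). All mice ate standard chow until the age of 7 weeks, the high-fat diet held 60% of its energy as fat, and the tissue was taken at 149 or 150 days. How the knockout allele was made, and whether it acts in all cells, is not stated in the labels. The group comparisons ask whether loss of Gpr101 and a fat-rich diet alter this satiety system, alone or together.

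Pomc neurons of the arcuate nucleus release alpha-MSH, which activates melanocortin receptors on other neurons and thereby reduces feeding, while neighbouring neurons release agouti-related peptide, encoded by Agrp, which blocks the same receptors. The POMC precursor is cut by the convertases PC1/3 (Pcsk1) and PC2 (Pcsk2), trimmed at its basic ends by carboxypeptidase E (Cpe) and amidated by Pam, and mature alpha-MSH is inactivated by the peptidase Prcp. Cartpt encodes the CART peptides, which reduce food intake and are made by many Pomc neurons of rodents as well as by other hypothalamic neurons. The processing enzymes serve most neuropeptides, so in whole hypothalamus their transcripts come from many kinds of neuron.

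The sequences before the start sites of Pomc and Pcsk1 are shown because they belong to the precursor of alpha-MSH and to the convertase that makes the first cuts in it. They are the upstream parts of RefSeq promoter windows of GRCm38.p6, written 5′ to 3′ on the strand of the gene. Capitals mark matches to the motifs searched, which were the cAMP response element TGACGTCA, the STAT element TTCNNNGAA and the TATA box TATAAA, each on both strands. The windows are Pomc chr12:3954695-3954944 on the plus strand and Pcsk1 chr13:75089607-75089825 on the plus strand, the last without the 31 bases next to the start, which another annotation places inside the transcript.
Pomc: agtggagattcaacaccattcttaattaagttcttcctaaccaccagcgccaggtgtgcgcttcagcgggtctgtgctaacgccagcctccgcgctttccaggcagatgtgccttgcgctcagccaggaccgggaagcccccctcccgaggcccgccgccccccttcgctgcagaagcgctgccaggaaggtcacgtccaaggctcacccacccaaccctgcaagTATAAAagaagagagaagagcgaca
Pcsk1: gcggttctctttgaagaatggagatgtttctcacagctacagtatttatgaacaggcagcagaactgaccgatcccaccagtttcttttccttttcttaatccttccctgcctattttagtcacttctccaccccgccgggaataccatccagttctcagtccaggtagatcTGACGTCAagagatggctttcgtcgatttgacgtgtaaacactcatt
The cAMP response element stood from 78 to 71 bases before the RefSeq start of Pcsk1, and the TATA box from 25 to 20 bases before that of Pomc. A further cAMP response element stood from 112 to 105 bases before the RefSeq start of Cartpt, which lies inside the first exon of the longer gene model used for the coordinates here, so the letters there are transcribed in that model. In 250-base upstream windows over all 32851 RefSeq promoters, the cAMP response element was present in 1.55%, the STAT element in 7.02% and the TATA box in 12.4%. The 8 of the 10 genes whose windows were searched held no other match, and a match is a description of these letters only.

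Each library held between 25.3 and 34.2 M reads on genes (M, megareads), the median being 27.7 M. Gpr101 had 2471 to 3472 reads in each wild-type library and 0 or 1 in each knockout library, so every library carried the level of its label. Hypothalamic markers were present in every library, with Nkx2-1, the transcription factor of the ventral hypothalamus, between 927 and 1524 normalized counts. Of 10 markers of arcuate neurons, Kiss1 was listed at 0 in all libraries. Age followed diet, with 5 KO_CD and 6 WT_CD mice of 149 days against 1 mouse of each high-fat group.

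The 10 transcripts spanned a wide range of abundance. In reads per kilobase of exon, scaled to an equal total of 1 M reads on genes per library, a unit that allows genes to be compared, Cpe was highest at a median of 635.4 over the 32 libraries, above 99.8% of the genes tested. Cartpt followed at 117.0 and Pomc at 56.1. Pam had 34.1 and Pcsk2 26.5, and these 5 genes kept this order in all 32 libraries, although the ranges of Pomc (37.5 to 86.99) and Pam (31.5 to 37.6) touched. Mrap2 at 16.5 and Pcsk1 at 15.8 were close, with Mrap2 the higher of the pair in 23 of 32 libraries, so their order did not stand beyond their spread. The receptors were lowest, with Mc3r at 2.35 and Mc4r at 0.955, on either side of Prcp at 1.55. Mc3r exceeded Prcp in 31 of 32 libraries and Prcp exceeded Mc4r in all 32, although the ranges of these neighbours overlapped.

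The genes also differed in how steady they were among mice of the same group. On the log2 scale Pomc had a within-group SD of 0.30, the widest of the 10, against a median of 0.12 over all genes tested. Mc4r (0.21), Mc3r (0.21), Cartpt (0.15) and Prcp (0.13) came next. Mrap2 (0.09), Pcsk1 (0.07), Pam (0.06), Cpe (0.05) and Pcsk2 (0.04) varied less than the median gene. A difference of a given size was therefore easier to resolve for the convertases than for Pomc.

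**Figure D1:**
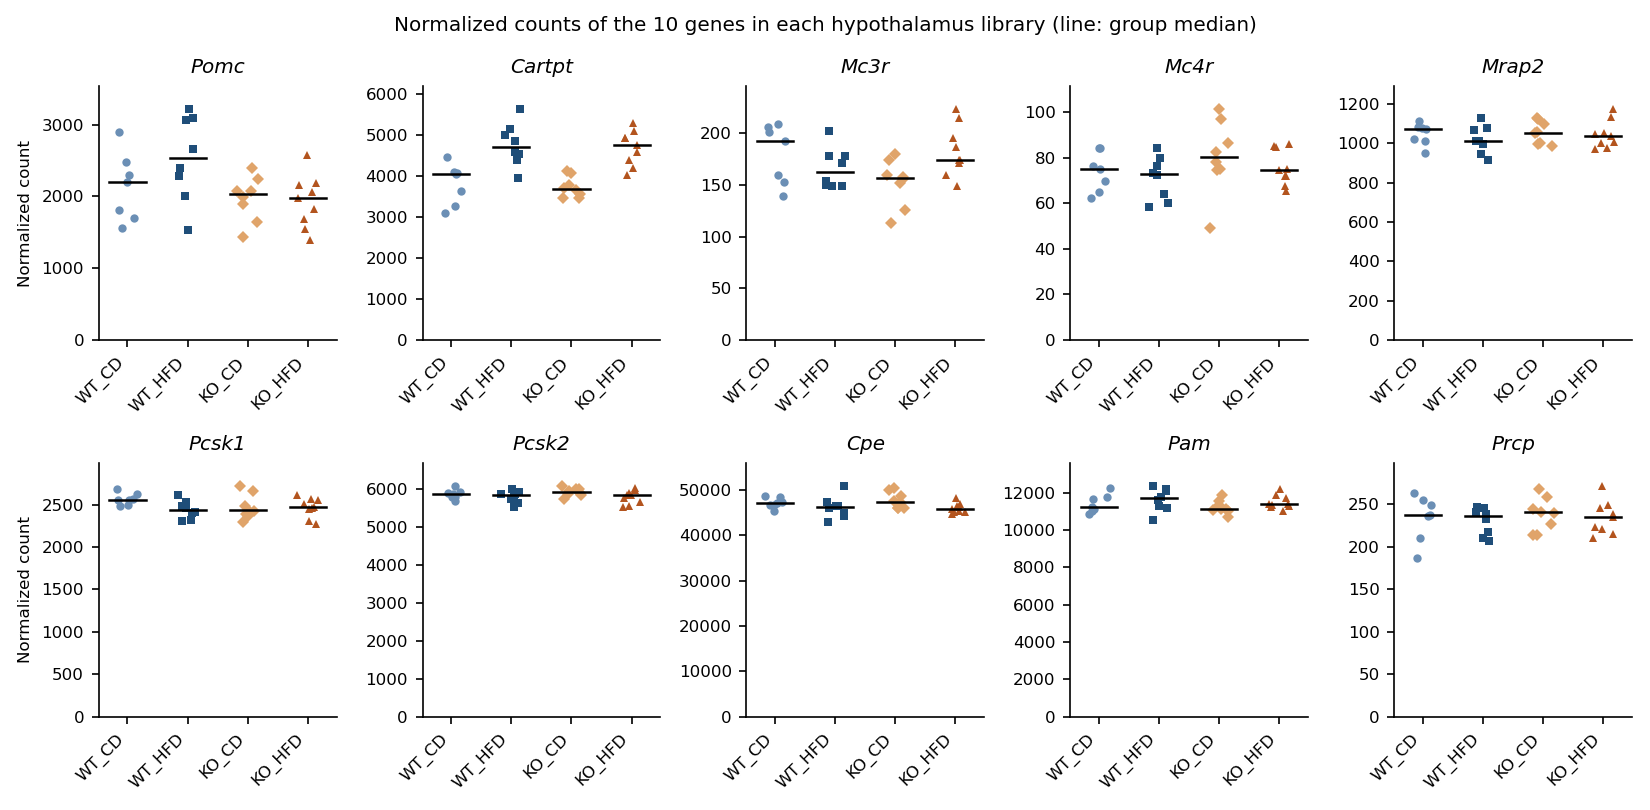
Normalized counts (vertical axes, from 0) of each gene in each library, by group on the horizontal axis. Each point is 1 mouse and each line the group median. Cartpt stands higher in both high-fat groups, with medians of 4721 and 4774 against 4063 and 3691 on control diet.

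Cartpt was the 1 gene of the 10 called for diet, a call that was lost with age as a covariate. Cartpt (ENSMUSG00000021647, GRCm38 chromosome 13, 99898489 to 99901091, minus strand) had 3107 normalized counts in the lowest WT_CD library, a median of 4063 and a highest value of 4482. WT_HFD libraries ran from 3945 over a median of 4721 to 5640. In knockouts the values went from 3474 over 3691 to 4125 in KO_CD, and from 4034 over 4774 to 5294 in KO_HFD. Of the 17 high-fat libraries, 17 lay above the median of the control-diet libraries and 12 above all of them, although the ranges overlapped. Averaged over genotypes, Cartpt rose by 0.32 on the log2 scale on high-fat diet (SE 0.05, 95% confidence interval of the fold 1.16 to 1.35, limma adjusted p = 0.00139), the rank 12 of all genes by p. Over all genes tested 0.336% were called in this comparison, and of the 10 genes 1 was called, with a median log2 fold change of -0.02 for the 10 against -0.0008 for all genes.

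The change of Cartpt was of similar size in both genotypes, and a difference between them was not detected. It was 0.32 (SE 0.08, limma adjusted p = 0.214) in wild type and 0.33 (SE 0.07, limma adjusted p = 0.0941) in knockouts, neither past the threshold over all genes. In those comparisons 0.0251% and 0.0351% of genes were called, and none of the 10 genes in either, where limma gave an unadjusted p below 0.05 to 2 of the 10 in wild type and 3 in knockouts, and to 1473 and 1402 of all genes. The difference between the genotypes was 0.006 on the log2 scale (SE 0.10, interval -0.21 to 0.22, limma adjusted p = 0.999). In mice of 150 days alone the value was 0.21 (SE 0.14) in wild type, from 1 control mouse, and 0.33 (SE 0.09) in knockouts. In a fit of the 2 knockout groups alone, the change in knockouts passed the threshold (0.33, limma adjusted p = 0.0425).

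Age and diet could be told apart only in part for Cartpt. With age as a covariate the diet change averaged over genotypes was 0.28 (SE 0.07, limma adjusted p = 0.125), no longer past the threshold. Within mice of 150 days, a restriction added after the data were seen, it was 0.27 (SE 0.08, limma adjusted p = 0.998). The 3 KO_CD mice of 150 days had 3566, 3671 and 4125 normalized counts, and the 8 KO_HFD mice of that age ran from 4212 to 5294 with a median of 4848. The share of all genes that stood apart in this way was not computed. The 1 WT_CD mouse of 150 days had 4063, and the 7 WT_HFD mice of that age had a median of 4589. The 1 high-fat mouse of 149 days in each genotype had 5015 in wild type and 4034 in knockouts. Control-diet mice of 149 days ran from 3107 to 4482 in wild type and from 3474 to 4089 in knockouts, so the knockout high-fat mouse lay inside their range. Blood transcripts also moved with diet, with Hbb-bs, encoding a beta-globin, higher by 0.62 on the log2 scale (SE 0.14, limma adjusted p = 0.0381), or by 0.33 with age as a covariate (limma adjusted p = 0.521). Hba-a1, encoding an alpha-globin, was higher by 0.59 (limma adjusted p = 0.0468). Both globins of the list of 14 glial, vessel, meningeal and blood markers were called and none of the other 12, where 0.336% of all genes were called. The summed level of that list ranged from 120891 to 132818 normalized counts in WT_CD, 123484 to 155727 in WT_HFD, 125426 to 148218 in KO_CD and 125364 to 164245 in KO_HFD. Its part in the Cartpt result was not tested. Of 10 markers of hypothalamic nuclei, 1 was called higher and 1 lower for diet averaged over genotypes, against the same 0.336% of all genes. They were Avp and Hcrt, at 0.37 and -0.40 with age as a covariate (limma adjusted p = 0.242 and 0.206).

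Between genotypes Cartpt had log2 fold changes of -0.03 on control diet (SE 0.08, 95% confidence interval -0.18 to 0.13) and -0.02 on high-fat diet (SE 0.07, interval -0.16 to 0.13). Neither passed the test. The intervals leave room for changes of up to 0.18 in size on the log2 scale.

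Pomc, the precursor of alpha-MSH, did not pass the test in any comparison, and its values were spread widely. Pomc (ENSMUSG00000020660, GRCm38 chromosome 12, 3954951 to 3960642, plus strand) ran from 1555 over a median of 2197 to 2898 normalized counts in WT_CD and from 1534 over 2529 to 3215 in WT_HFD. In knockouts it ran from 1430 over 2034 to 2395 on control diet and from 1389 over 1980 to 2578 on high-fat diet. The highest group was WT_HFD, and only 1 of the 9 KO_HFD libraries lay above its median, with ranges that overlapped. On high-fat diet Pomc in knockouts was 0.773 times the wild-type level (log2 fold change -0.37, SE 0.15, 95% confidence interval -0.67 to -0.07, limma adjusted p = 0.948). On control diet the value was -0.10 (SE 0.16, interval -0.42 to 0.22), and averaged over diets -0.24 (SE 0.11, interval -0.46 to -0.02, limma adjusted p = 0.866). The interaction of genotype and diet was -0.27 (SE 0.21, limma adjusted p = 0.999).

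Pituitary corticotrophs and melanotrophs make Pomc as well, so pituitary markers were read beside it. Of 12 such markers 7 passed the filter on low values. Lhb was listed at 0 in every library, and Pou1f1, a factor of anterior lobe cells other than corticotrophs, reached at most 3.12 normalized counts. Neither of these, nor Gh below, marks the cells that make Pomc. Tbx19 and Pax7, the markers of such cells in the list, are not given singly here. The summed list ranged from 134.5 to 273.9 in WT_CD, 155.8 to 567.2 in WT_HFD, 122.2 to 398.6 in KO_CD and 135.5 to 320.0 in KO_HFD, so its highest values and its highest median (320.1) were in WT_HFD, as for Pomc. The growth hormone gene Gh, for one, ranged from 0 to 302.6 in WT_HFD and had a median of 9.27. Within groups the mean log2 level of the 7 tested markers and Pomc correlated with Pearson r = 0.17 and Spearman rho = 0.11 over 32 libraries (permutation p = 0.359 and 0.547, adjusted p = 0.572 and 0.736 over 70 relations, and r = 0.11 without the 2 farthest libraries). In that mean each marker counts equally, unlike in the sum, which was not itself correlated with Pomc. In the genotype comparison on high-fat diet, 8 of 9 tested markers of arcuate neurons and 8 of 10 of hypothalamic nuclei lay below 0 (medians -0.07 and -0.08). Of neighbouring regions 7 of 10 markers lay above 0 (median 0.05), and none of these markers was called. On control diet the pattern was alike, with 8 of 9 and 8 of 10 below 0 (medians -0.07 and -0.06). There 8 of 10 markers of neighbouring regions lay above 0 (median 0.11), again with none called. The part of these tissues in the group values of Pomc was not tested.

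**Figure D2:**
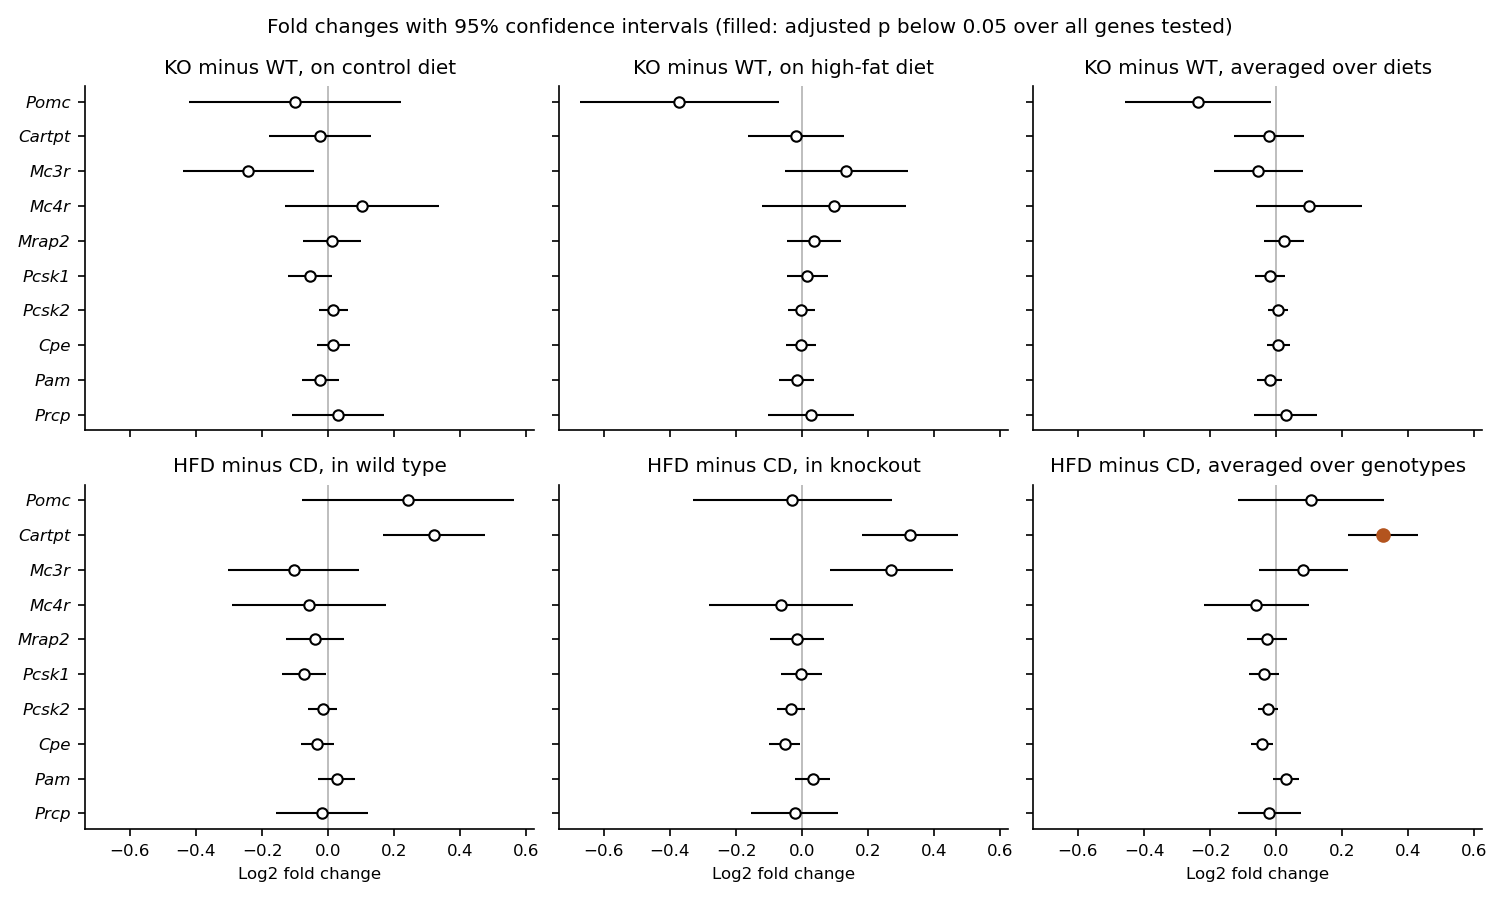
Log2 fold changes (horizontal axes) of the 10 genes for knockout against wild type in the upper row and high-fat against control diet in the lower row. Circles are limma estimates, lines 95% confidence intervals, and a filled circle marks an adjusted p below the threshold of 0.05. The single filled circle is Cartpt for diet averaged over genotypes, at 0.32.

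With diet Pomc had log2 fold changes of 0.24 in wild type (SE 0.16, interval -0.08 to 0.56), -0.03 in knockouts (SE 0.15, interval -0.33 to 0.27) and 0.10 averaged over genotypes (SE 0.11, limma adjusted p = 0.778). The value in knockouts crossed 0 when KO_CD replicate 4, KO_HFD replicate 3 or KO_HFD replicate 8 was left out. Agrp, the opposing gene, was at 113.7 to 165.4 normalized counts in WT_CD with a median of 131.0, and at 64.1 to 131.6 in WT_HFD with a median of 111.8. In knockouts Agrp ran from 62.6 over 121.6 to 139.5 on control diet and from 74.9 over 101.4 to 119.4 on high-fat diet. Its change with diet averaged over genotypes was -0.30 (SE 0.11, limma adjusted p = 0.239).

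The log2 difference between Pomc and Agrp sets the agonist precursor against the inverse agonist in each mouse. In WT_CD it ran from 3.56 to 4.26 and averaged 3.95 ± 0.27 (SD, n = 7), and in WT_HFD it ran from 4.04 to 5.56 and averaged 4.60 ± 0.49 (SD, n = 8). The high-fat mice were thus higher by 0.65, and all 8 lay above the median of the controls (exact permutation p = 0.00575, adjusted p = 0.023 over 4 comparisons). In knockouts the averages were 4.13 ± 0.31 (SD, n = 8) and 4.29 ± 0.37 (SD, n = 9), a difference of 0.16 (exact permutation p = 0.348, adjusted p = 0.348). The diet effect in knockouts minus that in wild type was -0.49 (permutation p = 0.0644 with 100000 draws, a test added after the data were seen). When each of the 32 libraries was left out in turn, 25 runs stayed above 0.05, with a permutation p up to 0.134. The other 7 fell under 0.05, among them that without KO_HFD replicate 4 with -0.59 (permutation p = 0.0205). Between genotypes the balance differed by 0.18 on control diet (exact permutation p = 0.247) and by -0.31 on high-fat diet (exact permutation p = 0.167), both with an adjusted p of 0.329. Without KO_HFD replicate 4 the value on high-fat diet was -0.40 (exact permutation p = 0.0469, unadjusted). Of the 17 runs that left out 1 library, 16 stayed above 0.05, with an exact permutation p up to 0.355. At 150 days the 1 WT_CD mouse had 4.26 and the 7 WT_HFD mice ran from 4.04 to 5.56 with a median of 4.60. At 149 days the 6 WT_CD mice ran from 3.56 to 4.23 and the 1 WT_HFD mouse had 4.26. With 1 mouse on a side within each age, age and diet cannot be told apart for the balance in wild type.

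**Figure D3:**
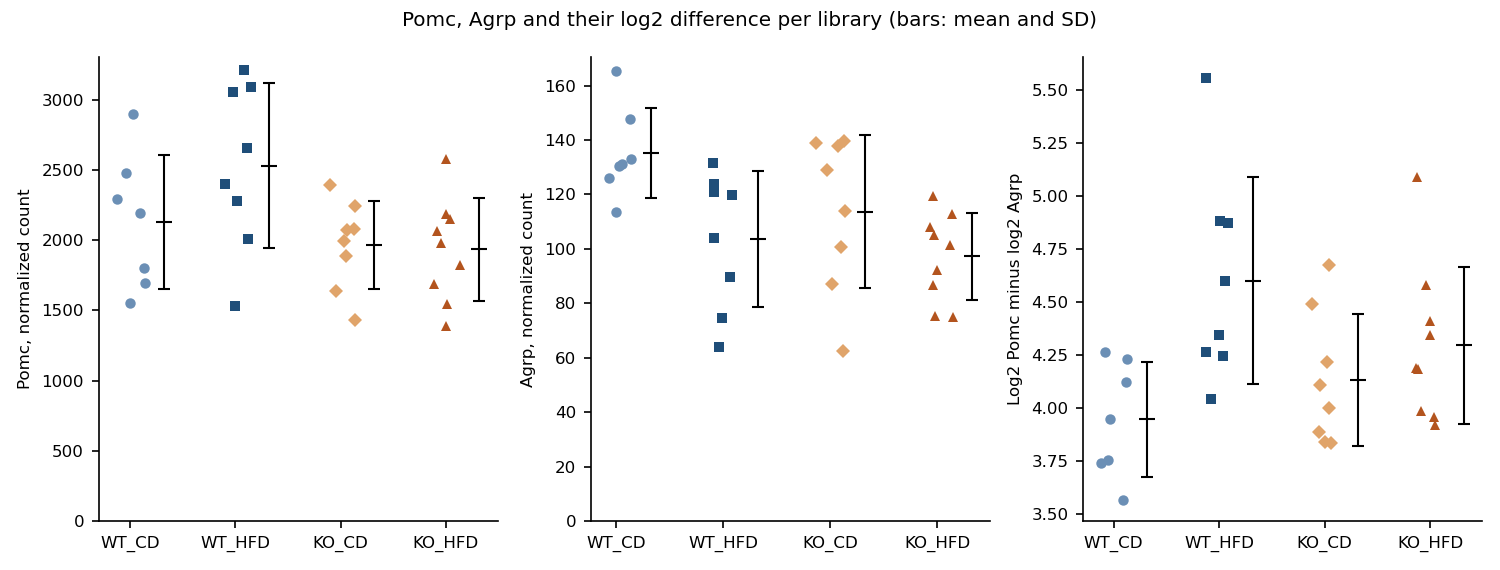
Pomc and Agrp in normalized counts (left and middle, from 0) and their log2 difference (right, not from 0) in each library. Points are mice, and bars beside them give the mean and SD of the group. The difference averages 4.60 in WT_HFD and 3.95 in WT_CD.

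The receptor genes did not pass the test in any comparison. Mc3r (ENSMUSG00000038537, GRCm38 chromosome 2, 172248492 to 172251114, plus strand) encodes a melanocortin receptor found on arcuate neurons, Pomc neurons included. It ran from 139.5 over a median of 192.8 to 209.3 normalized counts in WT_CD and from 149.2 over 162.7 to 202.9 in WT_HFD. In KO_CD it ran from 113.5 over 156.5 to 179.7 and in KO_HFD from 148.8 over 174.4 to 223.6. No KO_CD library reached the median of WT_CD, and 8 of 9 KO_HFD libraries lay above the median of KO_CD, with overlapping ranges in both cases.

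The values of Mc3r pointed opposite ways in the 2 genotypes. The diet change was 0.27 in knockouts (SE 0.09, interval 0.08 to 0.46, limma adjusted p = 0.484) and -0.10 in wild type (SE 0.10, interval -0.30 to 0.09, limma adjusted p = 0.853). The interaction was 0.37 (SE 0.13, interval 0.10 to 0.65), with an unadjusted limma p of 0.00788 and an adjusted p of 0.999, and it was the rank 70 of all genes by p. No gene was called in the interaction (0% of the genes tested), and limma gave 676 genes an unadjusted p below 0.05. The knockout difference was -0.24 on control diet (SE 0.10, limma adjusted p = 1) and 0.13 on high-fat diet (SE 0.09, limma adjusted p = 0.948). In mice of 150 days alone, the diet value in wild type was 0.04, from 1 control and 7 high-fat mice.

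Mc4r, the main receptor through which alpha-MSH limits feeding, was near the lower end of what these libraries resolve, with 50 to 105 reads per library. Its medians were 75.2 normalized counts in WT_CD, 72.9 in WT_HFD, 80.2 in KO_CD and 74.8 in KO_HFD, and its ranges overlapped in every comparison. The KO_CD group was the most spread, from 49.2 to 101.3. The knockout difference averaged over diets was 0.10 (SE 0.08, limma adjusted p = 0.912) and the diet change averaged over genotypes -0.06 (SE 0.08, limma adjusted p = 0.832). Mrap2, whose protein raises signalling by the MC4R protein, had medians from 1012 to 1071 and averaged values of 0.02 (SE 0.03) for genotype and -0.03 (SE 0.03) for diet.

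Averaged over diets, none of the 10 genes passed the test between genotypes, and 0.00502% of all genes tested were called. That share was 1 gene, lower in knockouts, and the genes tested include Gpr101 itself, with 0 or 1 reads in each knockout library. The same share was called on control diet and on high-fat diet, again with none of the 10 genes. The 10 had median log2 fold changes of -0.006 on control diet, 0.006 on high-fat diet and -0.007 averaged, with 5 above 0 and 5 below 0 each time. Limma gave an unadjusted p below 0.05 to 1 of the 10 on each diet, Mc3r on control diet and Pomc on high-fat diet. The same test gave 821 and 1026 of all genes an unadjusted p below 0.05 in those comparisons.

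None of the processing enzymes passed the test in any comparison, and their estimated changes were small. Cpe, the carboxypeptidase that trims the basic residues, had medians of 47177 normalized counts in WT_CD, 46200 in WT_HFD, 47389 in KO_CD and 45936 in KO_HFD. Of the 17 high-fat libraries 2 lay above the median of the control-diet libraries and 7 lay below all of them. The diet value averaged over genotypes was -0.04 (SE 0.02, interval -0.08 to -0.01), with an unadjusted limma p of 0.0145 and an adjusted p of 0.314. In knockouts it was -0.05 (SE 0.02, limma adjusted p = 0.638) and in wild type -0.03 (SE 0.02, limma adjusted p = 0.793).

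Pcsk1 (ENSMUSG00000021587, GRCm38 chromosome 13, 75089826 to 75134861, plus strand), whose product PC1/3 makes the first cuts in POMC, ran from 2489 over a median of 2559 to 2681 normalized counts in WT_CD. It ran from 2307 over 2437 to 2621 in WT_HFD, from 2295 over 2433 to 2727 in KO_CD and from 2274 over 2477 to 2616 in KO_HFD. WT_CD had the highest median and the narrowest range, and 6 of 8 libraries lay below all WT_CD libraries in WT_HFD and 6 of 8 in KO_CD. The diet value in wild type was -0.07 (SE 0.03, interval -0.14 to -0.01), with an unadjusted limma p of 0.0327 and an adjusted p of 0.629. In knockouts it was -0.003 (SE 0.03, interval -0.07 to 0.06), and it crossed 0 when KO_CD replicate 3, KO_CD replicate 7, KO_HFD replicate 1 or KO_HFD replicate 2 was left out and with scaling by total reads. The knockout difference was -0.05 on control diet (SE 0.03) and 0.01 on high-fat diet (SE 0.03), and neither passed the test.

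Pcsk2, encoding PC2, which cuts further to the smaller peptides, was the steadiest of the 10, with medians from 5837 to 5926 normalized counts. Pam, the amidating enzyme, had medians of 11231 in WT_CD, 11687 in WT_HFD, 11132 in KO_CD and 11372 in KO_HFD, and 15 of 17 high-fat libraries lay above the median of the control-diet libraries. Its diet value was 0.03 (SE 0.02, limma adjusted p = 0.604), and that of Pcsk2 was -0.03 (SE 0.02, limma adjusted p = 0.547). Prcp, the peptidase that inactivates alpha-MSH, had medians from 234.8 to 240.9 and a diet value of -0.02 (SE 0.05, limma adjusted p = 0.912). Between genotypes averaged over diets, the 5 processing genes had values from -0.02 to 0.03. The opposite-strand genes Pcsk2os1 and Pcsk2os2 overlap Pcsk2, and 5 genes overlap Pam, of which Gm24465 and Gm25413 lie on the opposite strand. Reads could be shared there, as the labels do not state how reads were counted or whether by strand. The highest mean of an overlapping gene was 111 normalized counts at Pcsk2 and 211 at Pam. At Prcp 9530078K11Rik overlaps on the same strand, with a mean of 0 in whole counts.

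Beyond the group means, several of the genes deviated together from library to library. After removal of group means, 4 of the 45 pairs of genes correlated past an adjusted permutation p of 0.05 by both Pearson and Spearman over 32 libraries, and the median r of all pairs was 0.10. The share of such pairs among all genes was not computed, so the 4 pairs are not shown to be particular to these genes. Pomc and Cartpt had the highest value, with r = 0.70 and rho = 0.68 (permutation p = 0.00011 and 0.00012, adjusted p = 0.0036 and 0.0054). Cartpt and Pam had r = 0.67 and rho = 0.58 (permutation p = 0.00016 and 0.00173, adjusted p = 0.0036 and 0.0260). Pomc and Pam had r = 0.63 and rho = 0.63 (permutation p = 0.00048 and 0.00061, adjusted p = 0.0072 and 0.0137). Cartpt and Pcsk1 had r = 0.52 and rho = 0.49 (permutation p = 0.00116 and 0.0053, adjusted p = 0.0131 and 0.0497), and without removal of group means r = 0.11 (permutation p = 0.534).

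The 4 values of r were above 0 in each group and at each age, as a description of 7 to 9 libraries a group with no test. Pomc with Cartpt had r = 0.85 in WT_CD, 0.65 in WT_HFD, 0.87 in KO_CD and 0.50 in KO_HFD, and 0.82 in the 13 mice of 149 days and 0.60 in the 19 of 150 days. Cartpt with Pam had r = 0.81, 0.56, 0.84 and 0.61 in the same groups, and Pomc with Pam 0.89, 0.42, 0.63 and 0.76. Cartpt with Pcsk1 had r = 0.56, 0.40, 0.50 and 0.83. At 149 and 150 days, r was 0.87 and 0.60 for Cartpt with Pam, 0.82 and 0.58 for Pomc with Pam, and 0.42 and 0.59 for Cartpt with Pcsk1. Without the 2 libraries farthest from the median, r was 0.64 for Pomc with Cartpt, 0.57 for Cartpt with Pam, 0.50 for Pomc with Pam and 0.47 for Cartpt with Pcsk1. WT_HFD replicate 5 was the lowest library of its group for Pomc, Cartpt and Pam, and without it 2 of the 45 pairs stayed past the adjusted threshold, with r = 0.64 for Pomc with Cartpt and 0.60 for Cartpt with Pam. Pomc with Pam then had r = 0.53 and Cartpt with Pcsk1 r = 0.48.

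**Figure D4:**
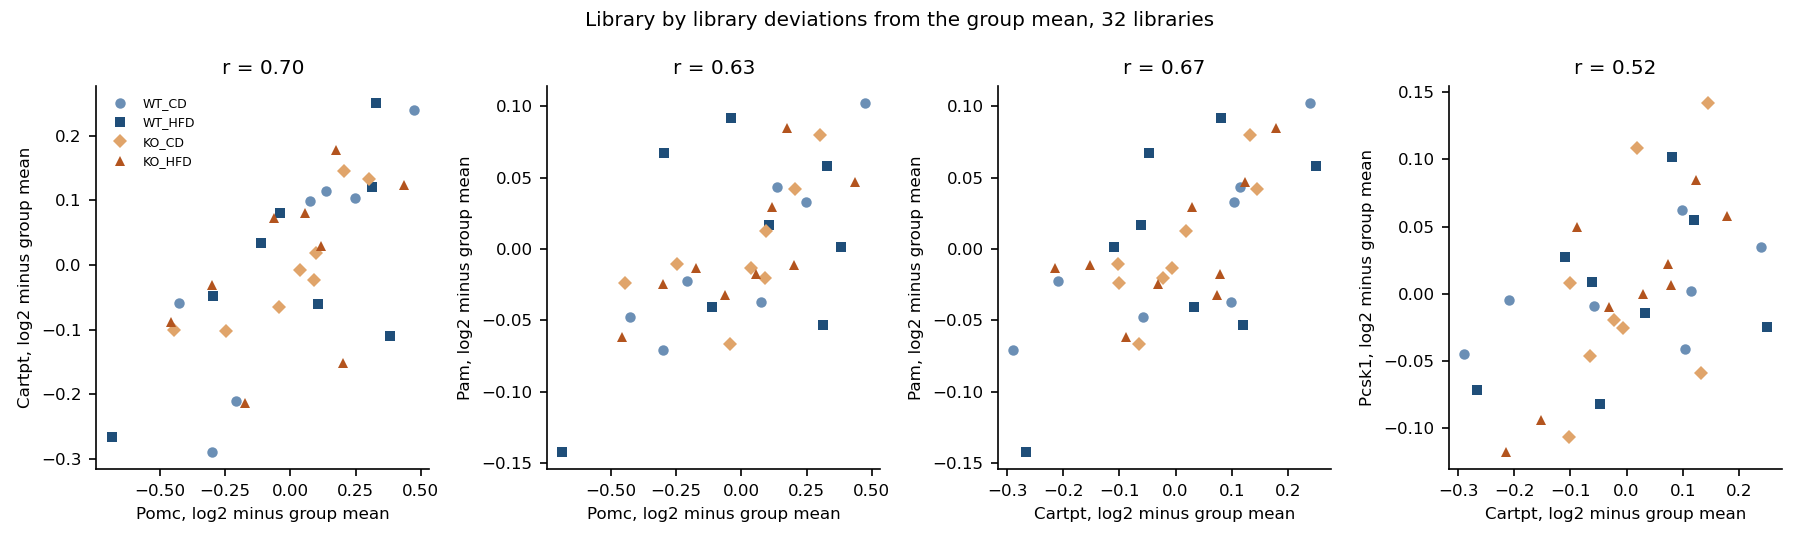
Deviation of each library from its group mean on the log2 scale for 4 pairs of genes, with a marker per group. Points rise from lower left to upper right in each panel, with r from 0.52 to 0.70 over 32 libraries, and WT_HFD replicate 5 is the point at the lower left for Pomc and Pam.

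The other pairs were weaker. Mc3r with Pam had r = 0.47 and rho = 0.50 (permutation p = 0.008 and 0.00552, adjusted p = 0.072 and 0.0497), and without the 2 farthest libraries r = 0.48. Cartpt with Mc3r had r = 0.42 (permutation p = 0.0243, adjusted p = 0.182), Pcsk2 with Cpe r = 0.36 (adjusted permutation p = 0.312) and Pomc with Pcsk1 r = 0.34 (adjusted permutation p = 0.312). The lowest value was r = -0.30 for Mrap2 with Pam (adjusted permutation p = 0.523).

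**Figure D5:**
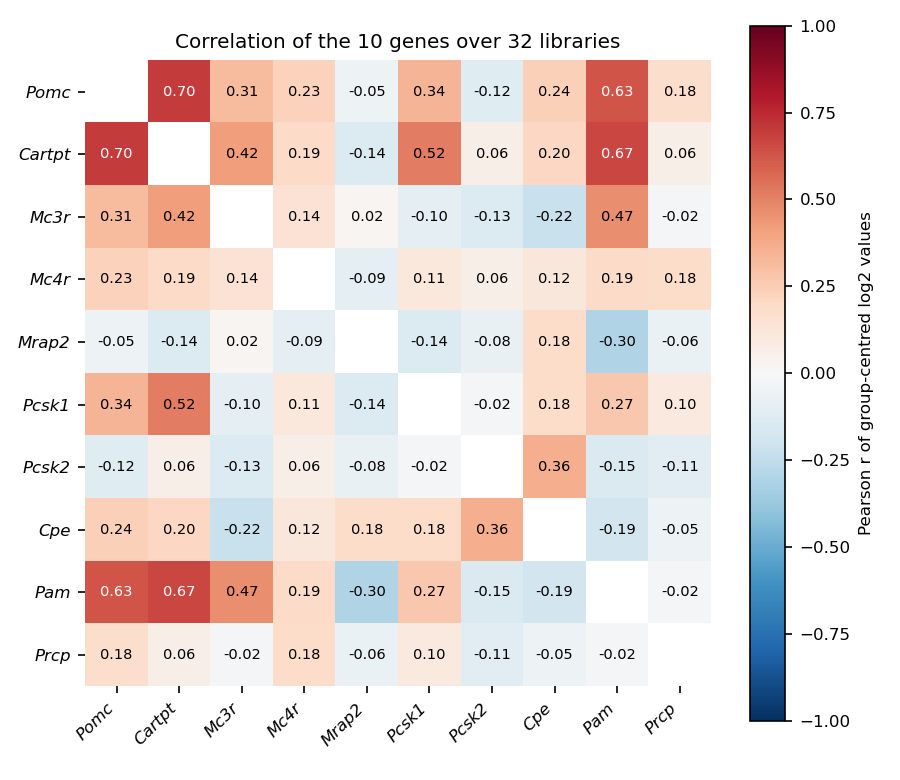
Pearson r of group-centred log2 values over 32 libraries for each pair of the 10 genes, red for positive and blue for negative values. The values are highest among Pomc, Cartpt and Pam, from 0.63 to 0.70, and reach -0.30 for Mrap2 with Pam.

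Markers of brain regions that border the hypothalamus correlated negatively with Pam and Pomc. The mean log2 level of 10 markers of thalamus, cortex and striatum, all of them tested, correlated with Pam at r = -0.75 and rho = -0.77 (permutation p = 3e-05 and 1e-05, the latter the smallest the draws can give, adjusted p = 0.0021 and 0.0007 over 70 relations). With Pomc it correlated at r = -0.59 and rho = -0.63 (permutation p = 0.00107 and 0.00041, adjusted p = 0.0250 and 0.00957). Without the 2 farthest libraries r was -0.68 for Pam and -0.54 for Pomc. The other 8 genes did not pass, with r from -0.45 for Cartpt (adjusted permutation p = 0.136) to 0.41 for Mrap2 (adjusted permutation p = 0.144). The summed level of these markers ranged from 10551 to 13431 normalized counts in WT_CD, 10097 to 14178 in WT_HFD, 11677 to 13653 in KO_CD and 10767 to 13131 in KO_HFD, and none of the 10 was at 0 in any group. With their level removed from every library, a step added after the data were seen, Pomc with Cartpt had r = 0.60 and Cartpt with Pam r = 0.56, while Pomc with Pam dropped to r = 0.35 (permutation p = 0.122) and Mc3r with Pam to r = 0.28. With reads on genes removed in the same way, r was 0.68 for Pomc with Cartpt and 0.65 for Cartpt with Pam. Pam also correlated with 10 general neuronal markers at r = -0.63 and rho = -0.65 (permutation p = 0.00073 and 0.00035, adjusted p = 0.0250 and 0.00957), and without the 2 farthest libraries at r = -0.51. In tissue RNA, more cells of a type and more RNA per cell cannot be told apart.

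The genes whose pattern was most like that of each gene, over the same 32 group-centred libraries and among 13977 genes, are given as a description. For Pomc they were Adcyap1, encoding the neuropeptide PACAP (r = 0.78), Prdx6, a peroxiredoxin (0.77), Lmo3 (0.76), Rprm (0.73) and Bsx, a homeobox gene of arcuate neurons (0.73), and Cartpt stood at place 10. For Cartpt they were Serpina3n, a protease inhibitor of reactive astrocytes (0.82), Asb4 (0.78) and Prdx6 (0.77), with Pomc at place 20. For Pam they were Wif1, Wfs1, the gene of Wolfram syndrome, and Hdc, the histamine-forming enzyme of the posterior hypothalamus (0.84, 0.84 and 0.83). Pam itself stood at place 42 for Pomc and 32 for Cartpt, and Cartpt at place 91 for Pam. The highest values were 0.81 for Cpe, 0.72 for Mc3r and Pcsk1, 0.68 for Mrap2 and Pcsk2, 0.67 for Mc4r and 0.63 for Prcp.

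Genes around the 10 were read from 4 lists. Among 17 regulators of Pomc neurons, 2 were called for diet averaged over genotypes, both higher, and 0 lower, where 0.336% of all genes were called. Stat3, the factor through which leptin raises Pomc transcription, rose by 0.19 (SE 0.03, limma adjusted p = 5.34e-05). Socs3, which restrains leptin receptor signalling, rose by 0.53 (SE 0.08, limma adjusted p = 0.000295). With age as a covariate, Stat3 had 0.18 (limma adjusted p = 0.0268) and Socs3 0.58 (limma adjusted p = 0.00774). Within mice of 150 days they had 0.14 and 0.48 (limma adjusted p = 0.992 and 0.706), not past the threshold. The list had a median of 0.02 against -0.0008 for all genes, and its lower members by p, Sh2b1 (-0.04, SE 0.02) and Tbx3 (-0.05, SE 0.06), did not pass. In wild type 1 of the 17 was called, Stat3 at 0.21 (SE 0.04, limma adjusted p = 0.0209), and in knockouts 0, where Stat3 had 0.18 (SE 0.04, limma adjusted p = 0.0568). Over all genes 0.0251% were called for diet in wild type and 0.0351% in knockouts.

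Of 20 further genes of peptide processing and storage, 1 was called for diet averaged over genotypes, lower, and 0 higher, where 0.336% of all genes were called. Scg2, the secretogranin of dense-core vesicles, fell by 0.10 on the log2 scale (SE 0.02, limma adjusted p = 0.00249), with values of -0.11 in wild type and -0.095 in knockouts. With age as a covariate it had -0.10 (limma adjusted p = 0.125) and within 150 days -0.11 (limma adjusted p = 0.998), neither past the threshold. Ctsl, a cathepsin that can process precursors, had 0.06 (SE 0.02), Furin 0.05 (SE 0.02) and Vgf -0.06 (SE 0.04), and these did not pass. The list had a median of -0.01.

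None of 6 tested relatives of the melanocortin genes, of 10 listed, was called for diet. Sdc3, a syndecan that presents agouti-related peptide to its receptor, had -0.06 (SE 0.02, limma adjusted p = 0.0905) and Mgrn1, a ubiquitin ligase of melanocortin receptor signalling, -0.06 (SE 0.02, limma adjusted p = 0.132). Mc5r (0.06, SE 0.13) and Atrnl1 (0.01, SE 0.02) were the leading members above 0. None of 10 genes that act in or downstream of Mc4r neurons was called either, with Ntrk2, the BDNF receptor gene, at -0.06 (SE 0.02, limma adjusted p = 0.145), Adcy3, a cyclase gene, at -0.06 (SE 0.02), Sim1, a factor of paraventricular neurons, at 0.03 (SE 0.04) and the channel gene Kcnj13 at 0.66 (SE 0.56). The median of this list was -0.03 with 8 of 10 below 0.

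Between genotypes averaged over diets, 0 genes of the 4 lists were called in either direction. The leading members by p were Cpm, a membrane carboxypeptidase (0.19, SE 0.05, limma adjusted p = 0.724), and Scg5, the chaperone of PC2 (0.03, SE 0.02), in the processing list, with Pcsk7 (-0.05, SE 0.03) and Scg3 (-0.04, SE 0.02) below 0. Among the regulators they were Htr1b (0.09, SE 0.04) and Htr2c (0.08, SE 0.04), serotonin receptor genes, with Tbx3, a factor of arcuate neuron identity (-0.20, SE 0.06, limma adjusted p = 0.758), and Foxo1 (-0.09, SE 0.04) below 0. Among the relatives Agrp had -0.18 (SE 0.11) and Atrn 0.02 (SE 0.02), and among Mc4r neuron genes Arrb1, an arrestin gene, had 0.04 (SE 0.02) and Ntrk2 -0.03 (SE 0.02). On each diet alone, and in the interaction, 0 genes of these lists were called as well.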

How the data were processed

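RNA from the hypothalamus of 32 mice was sequenced as stranded paired-end reads on an Illumina NovaSeq instrument after extraction with an RNeasy kit, per the labels' protocols. Per the submitters' processing notes, the authors used STAR 2.7.6a and the build GRCm38, with DESeq2 1.28.1 under R 4.0.2, and for trimming and quality checks cutadapt 2.10, Trim Galore 0.6.2 and FastQC. How reads were counted, with which annotation and whether by strand, was not given in the sources used here. Values as deposited are log2 normalized counts, that is, the log2 of a read count over a size factor, with a count of 0 listed as the log2 of 0.1. Whole reads were recovered for 100% of values within a tolerance of 1e-06 reads.

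As the deposited unit was log2, limma 3.58.1 (R 4.3.3, intensity trend, robust moderation) was fitted on log2(normalized count + 1) with all 4 groups in 1 model, for the 19928 genes with at least 10 normalized counts in at least 7 libraries. Fold changes are on that scale, tests are two-sided, and adjusted p-values are Benjamini-Hochberg over all genes tested, called below 0.05. Adding 1 understates changes of low genes. Confidence intervals are 95%. The Pomc minus Agrp difference was compared by exact two-sided permutation of the libraries, and correlations used group-centred values with 100000 permutations, adjusted over the 45 pairs or 70 marker relations. A marker list entered its correlations as the mean log2(normalized count + 1) of its tested genes, while its summed counts are a description. Promoter sequences are from RefSeq, GRCm38.p6. The fit was tested on simulated data.

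The 10 genes and all lists were chosen with earlier results of these data known. All 10 were described in each comparison, with every called gene of the other lists and otherwise up to 2 higher and 2 lower genes with the smallest p. Similar genes were the 5 with the highest r for Pomc and the 3 for the others. Each library carries its own biological replicate label, so p-values measure the spread between mice. Alternatives varied the pseudocount, filter, scaling, variance model, age, blocks, the groups fitted and the libraries included.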

Additional observations from a re-analysis of the deposited data

How the results depend on the processing

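Cartpt kept its higher level on high-fat diet in every alternative run, and the call was lost only in those on age, where the number of the 10 genes called for diet was 0 with age as a covariate and 0 within mice of 150 days, against 1. Over all genes, 12 were called with the covariate and 0 within 150 days, against 67. Leaving out each library gave Cartpt values from 0.30 to 0.34. With only the groups compared in the fit, 1 of the 10 genes was called for diet in knockouts, against 0. The 150-day restriction for diet, the removal of marker levels or reads, the age alternatives for genes of the other lists, the balance within each age and the test of the difference in diet effects were chosen after seeing the data.

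Of 3100 alternative values of 70 fold changes, 99 lay on the other side of 0, in 21 fold changes of at most 0.10 in size, none of them called. Among those named, scaling by total reads gave Pcsk1 0.00504 for diet in knockouts, and mice of 150 days gave Cartpt 0.0189 for genotype on high-fat diet, Mc3r 0.0394 for diet in wild type and Pcsk2 0.00292 for diet averaged over genotypes. Leaving out each library in turn gave ranges that crossed 0 for Pomc (-0.0939 to 0.0262) and Pcsk1 (-0.0183 to 0.0172) for diet in knockouts, Cartpt for genotype on control diet (-0.0732 to 0.0148) and on high-fat diet (-0.0573 to 0.0163), and Cpe for genotype averaged over diets (-0.00102 to 0.0165). The Pomc minus Agrp difference ranged from -0.40 to -0.17 for genotype on high-fat diet, and from -0.59 to -0.35 for the diet effect in knockouts minus that in wild type. The number of correlated pairs ranged from 2 to 5 in the same way. Without removal of group means, 3 pairs passed and Cartpt with Pcsk1 had r = 0.11 against 0.52. The group log2 means of Cartpt were 11.89 in WT_CD, 12.21 in WT_HFD, 11.87 in KO_CD and 12.19 in KO_HFD. Those of Pcsk1 were 11.33, 11.25, 11.27 and 11.27 in the same order. What lies behind these group means was not tested.

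The replicate numbers were not taken to pair the samples. Libraries of the same number correlated at a median of 0.005 over 45 pairs, with 8 pairs over 0.1. Yet 11 of 32 libraries correlated best with one of their own number, where 3.76 would if numbers did not matter. The labels name no pairing, but their sample numbers pass through the 4 groups in turn, and replicate numbers rise with them. Libraries in the same run of 8 sample numbers correlated at a median of 0.006, against -0.002 for other runs. With the replicate number as a block, Cartpt for diet averaged over genotypes was 0.31 (limma adjusted p = 0.00761), and no call among the 10 genes changed. Of the 10 genes Mc4r had the fewest reads, at 50 to 105 per library, and how far depth limited it was not tested.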
